A study of Rattus norvegicus with 4 samples.

Results

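The regions described here are the H3K27me3 peaks across the rat major histocompatibility complex (MHC) and its flanks on chromosome 20. They were chosen by position alone, as every peak of the sham nerve's list that starts between 1 and 9 Mb of chromosome 20 in the assembly rn5. This took 768 of the 129550 peaks of the list. Of the 768, 272 name a gene whose symbol begins with RT1- (39 genes) and 496 name another gene (74 genes); a peak names the gene whose transcription start site (TSS) is nearest to its centre. The first peak of the window, at the olfactory receptor Olr1736, starts at 3806465, so no peak starts between 1 Mb and that point. The 39 RT1 genes, together with Tnf, Cfb, Notch4 and Daxx, are those of an MHC, which matches the name given to the window.

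The study profiled trimethylation of histone H3 at lysine 27 in sciatic nerve by chromatin immunoprecipitation and sequencing. The tissue came from male Sprague Dawley rats at postnatal day 42, from the side that received a skin incision only, 1 day after the nerve on the opposite side had been transected. Chromatin was cut with micrococcal nuclease, and 2 H3K27me3 libraries and 2 input libraries were made. Every animal therefore carried an injury on the other side. How many animals went into a library is not given in the sources used here, and the input libraries were not analysed here. The H3K27me3 libraries are represented by 1 combined peak list with no value per library. Each value below is therefore a description without replicate error, and no difference was tested. The whole nerve was used, so more cells with the mark and more mark per cell cannot be told apart. A peak list holds no expression values, and the tissue could not be checked against its marker genes.

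H3K27me3 is placed by the Polycomb complex PRC2 and is found on genes held silent, often in broad domains. The MHC, called RT1 in the rat, encodes class I molecules, which present peptides from inside the cell to CD8 T cells, and class II molecules, which present taken-up antigen to CD4 T cells. RT1-A genes encode the classical class I molecules, and the RT1-CE, RT1-T/N/O/S and RT1-M regions hold class I genes that are mostly non-classical. RT1-B and RT1-D genes encode the classical class II molecules, while RT1-DM and RT1-DO products help load peptide onto them. The class I genes of a region are close copies of each other. How reads that fit several copies were placed is not given in the sources used here, so a value assigned to a single RT1 gene is uncertain.

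The promoters below show what kind of DNA these families carry at their start sites. They are RefSeq sequences of the assembly GRCr8, newer than rn5, and each runs 5′ to 3′ on the gene's strand from 250 bases before the TSS to 50 bases after it. Capitals mark CG dinucleotides, the sites of DNA methylation and the content by which CpG-rich promoters are recognised. RT1-M5 (chr20:1553966-1554265, minus strand), RT1-O1 (chr20:2659687-2659986, plus), RT1-CE3 (chr20:3525109-3525408, minus), RT1-A1 (chr20:4906959-4907258, plus) and the class II gene RT1-Db2 (chr20:4541546-4541845, minus) each had a peak at the promoter in rn5. The class II gene RT1-Bb (chr20:4604069-4604368, minus) had none that names it and is shown beside them. A peak that names LOC688090, at chr20:6123365-6124482 in rn5 with a score of 48.7, lies within 1000 bp of the RT1-Bb TSS.
RT1-M5: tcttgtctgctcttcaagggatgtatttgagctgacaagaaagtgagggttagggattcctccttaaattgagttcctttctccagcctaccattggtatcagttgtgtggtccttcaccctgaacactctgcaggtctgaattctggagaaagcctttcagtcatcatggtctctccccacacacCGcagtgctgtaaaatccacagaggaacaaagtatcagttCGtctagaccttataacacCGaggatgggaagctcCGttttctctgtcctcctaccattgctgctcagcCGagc
RT1-O1: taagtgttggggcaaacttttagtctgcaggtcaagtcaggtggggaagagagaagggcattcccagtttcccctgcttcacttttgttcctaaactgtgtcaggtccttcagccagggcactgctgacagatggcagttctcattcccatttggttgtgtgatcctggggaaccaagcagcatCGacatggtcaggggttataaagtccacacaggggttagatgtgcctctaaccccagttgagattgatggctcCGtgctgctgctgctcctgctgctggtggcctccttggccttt
RT1-CE3: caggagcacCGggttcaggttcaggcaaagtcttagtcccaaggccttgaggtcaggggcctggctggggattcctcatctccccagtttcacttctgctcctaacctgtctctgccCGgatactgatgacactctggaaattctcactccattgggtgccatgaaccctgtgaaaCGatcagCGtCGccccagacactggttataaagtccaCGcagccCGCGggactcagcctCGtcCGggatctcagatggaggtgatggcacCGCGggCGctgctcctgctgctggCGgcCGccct
RT1-A1: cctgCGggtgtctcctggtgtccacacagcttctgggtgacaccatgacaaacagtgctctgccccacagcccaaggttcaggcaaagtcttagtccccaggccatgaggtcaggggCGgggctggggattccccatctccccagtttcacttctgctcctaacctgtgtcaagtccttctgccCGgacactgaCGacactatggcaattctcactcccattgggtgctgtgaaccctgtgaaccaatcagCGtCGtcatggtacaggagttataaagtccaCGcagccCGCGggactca
RT1-Db2: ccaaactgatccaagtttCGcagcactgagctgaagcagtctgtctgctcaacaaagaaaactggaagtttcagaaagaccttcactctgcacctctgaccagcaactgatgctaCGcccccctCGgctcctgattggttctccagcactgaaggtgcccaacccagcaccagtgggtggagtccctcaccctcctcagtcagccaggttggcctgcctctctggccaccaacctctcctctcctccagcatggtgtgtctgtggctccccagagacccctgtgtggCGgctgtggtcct
RT1-Bb: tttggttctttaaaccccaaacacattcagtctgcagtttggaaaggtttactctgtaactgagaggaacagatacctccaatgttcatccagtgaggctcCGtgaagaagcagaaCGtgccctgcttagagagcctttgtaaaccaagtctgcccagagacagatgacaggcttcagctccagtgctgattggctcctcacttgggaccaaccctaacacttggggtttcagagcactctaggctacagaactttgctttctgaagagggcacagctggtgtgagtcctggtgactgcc

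The promoters differ in their CG content between families. The class I promoter of RT1-CE3 holds 15 CG dinucleotides and that of RT1-A1 holds 9, against 4 in RT1-Db2 and 2 in RT1-Bb. RT1-M5 holds 5 and RT1-O1 holds 2. Of the 39 RT1 genes named in the window, 32 had such a sequence. Their median was 5.5 CG dinucleotides, 7.5 in the 24 class I promoters and 3.5 in the 8 class II promoters, against 7 over all 27457 RefSeq promoters of 300 bases. The ratio of observed to expected CG was 0.372 in class I, 0.161 in class II and 0.417 over all promoters. The 20 RT1 promoters with a promoter-reaching peak in rn5 that names the gene had a median of 7, and the 12 without one a median of 5. Among the 12 are RT1-Bb and RT1-CE11, whose TSS lies within 1000 bp of a peak that names another entry, LOC688090 or RT1-CE7. The 12 are thus not all without a peak at the promoter. The letters CCAAT, searched on both strands, stood in 8 of the 8 class II promoters and in 16 of the 24 class I promoters (66.7%), against 37.7% of all promoters. The letters GAAANNGAAA, also searched on both strands, stood in 2 of the 32 RT1 promoters (6.25%), against 3.77% of all.

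The first comparison asked how peaks at RT1 genes differ from the other peaks of the window in strength and width. RT1 peaks were denser and wider. Their median score per kb of peak width was 29.8 (95% interval of the median 27.9 to 32.0, n = 272 peaks), against 23.6 (23.4 to 24.3, n = 496) at other genes of the window. It was 23.4 over the 2323 peaks on the rest of chromosome 20 and 22.9 over the whole list. The score is the authors' own value for each peak, with no stated scale, and the intervals treat peaks as independent. The median width was 421 bp (327 to 528) at RT1 genes and 229 bp (203 to 249) at the other genes, against 192 bp on the rest of chromosome 20 and 191 bp in the whole list. The other genes of the window were thus close to the genome in score per kb and slightly above it in width.

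RT1 genes held a larger share of the signal than of the peaks. They named 35.4% of the window's peaks, 52.4% of the bases that its peaks cover (285768 of 545427 bp) and 69.4% of its summed score (18962 of 27306). The summed score per covered kb was 66.4 at RT1 genes, 32.1 at the other genes and 32.7 in the whole list. A score of at least 9.9, the upper quartile of the list, which 25.1% of all peaks had, was found in 159 RT1 peaks (58.5%, 95% Wilson interval 52.5 to 64.2%) and in 159 other peaks of the window (32.1%). Peaks wider than 1 kb were 79 of the 272 at RT1 genes (29.0%, 24.0 to 34.7%), 65 of the 496 others (13.1%, 10.4 to 16.4%) and 10.9% of the list. Peaks of the smallest width, 150 bp, made up 28.7% of RT1 peaks, 36.1% of the others and 45.2% of the list.

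**Figure D1:**
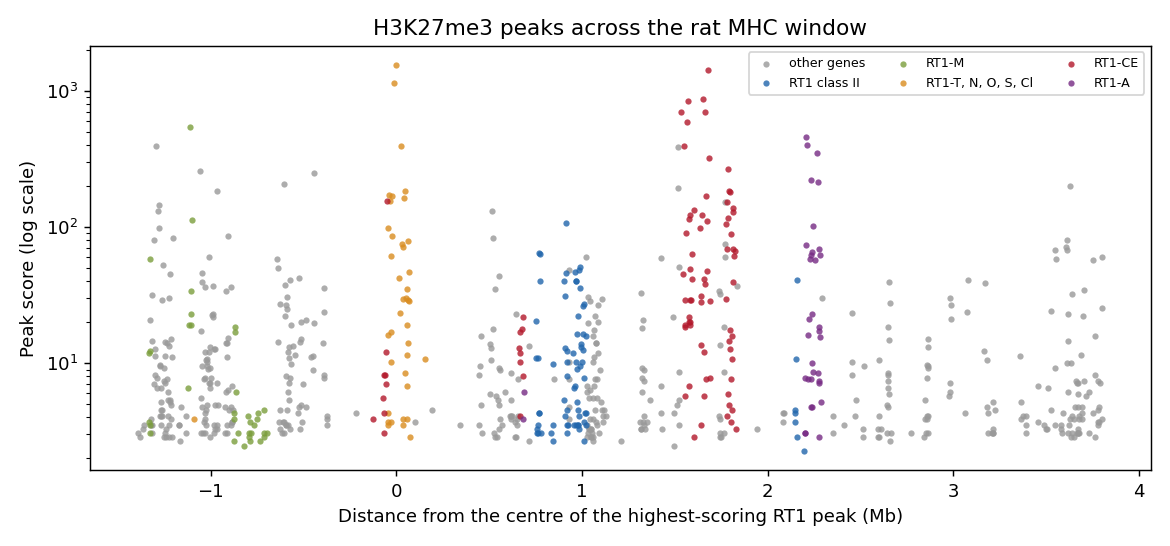
Score of each of the 768 peaks (log axis) against the distance in Mb from the centre of the highest-scoring RT1 peak, one point per peak, coloured by the gene family it names. The scores above 500 belong to RT1-T18, RT1-CE and RT1-M5 peaks, and no class II peak passes 107.9.

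The RT1 excess was not shared evenly among the families. By median score per kb the order was RT1-A at 52.3 (95% interval 34.4 to 59.5, 35 peaks), RT1-CE at 46.0 (38.5 to 51.8, 88 peaks), RT1-T/N/O/S/Cl at 34.6 (28.7 to 41.4, 40 peaks), class II at 23.4 (23.0 to 25.5, 74 peaks) and RT1-M at 20.9 (20.6 to 25.9, 35 peaks). The intervals of A and CE overlap, as do those of CE and T/N/O/S/Cl and those of class II and M. Class II, M and the 56 peaks at olfactory receptors (23.2) lay near the value of the whole list. Without the CE and A genes the median of the remaining 149 RT1 peaks was 25.5 (23.4 to 27.1). The CE genes alone held 50.7% of the RT1 score, against 25.4% for T/N/O/S/Cl, 12.7% for A, 6.15% for class II and 5.03% for M. The order by width was different, with medians of 778 bp for T/N/O/S/Cl, 599.5 bp for CE, 369.5 bp for class II, 271 bp for A and 188 bp for M.

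Genes also differed within families. The median score per kb of a gene's peaks was above that of the whole list in 32 of the 39 RT1 genes, as it was in 48.6% of all 10647 named genes. These were the 11 CE genes, the 3 A genes, the 8 T/N/O/S/Cl genes, 6 of 9 class II genes and 4 of 8 M genes. Among CE genes it ran from 28.9 at RT1-CE15 to 113 at RT1-CE12, among class II genes from 19.4 at RT1-DMb to 30.0 at RT1-DOa, and among M genes from 19.95 at RT1-M1-2 to 36.5 at RT1-M6-1, which has a single peak. RT1-A3, with 2 peaks and a median of 25.4, lay below RT1-A2 at 52.3 and RT1-A1 at 58.0.

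**Figure D2:**
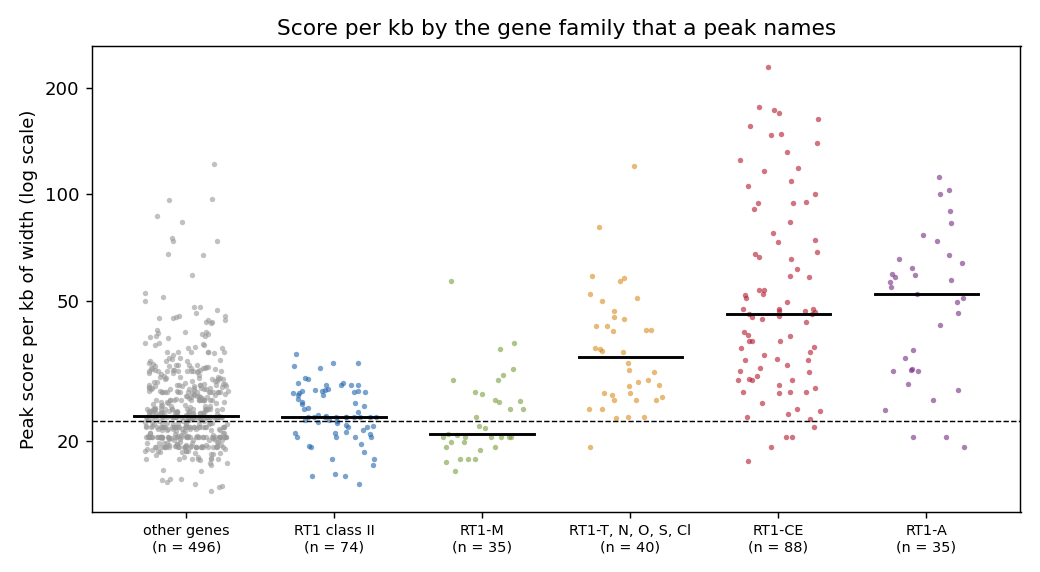
Score per kb of width (log axis) of each peak by the family of the gene it names, one point per peak, with family medians as bars and the median of the whole list as a dashed line. The RT1-CE and RT1-A medians, 46.0 and 52.3, stand above the line at 22.9, and the class II and RT1-M medians, 23.4 and 20.9, lie close to it.

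A score above 100 per kb was rare, at 56 peaks or 0.0432% of the list, a limit chosen after the values were seen. Of these 56, 20 were RT1 peaks of the window (16 CE, 3 A and 1 T/N/O/S/Cl), and none of the 74 class II or 35 M peaks was among them. A further 1 was an RT1 peak outside the window, 1 named another gene of the window and 34 lay elsewhere. Among the 20 peaks with the most score per kb and a width of 1000 bp or more, 10 were RT1 peaks.

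Because wide peaks had more score per kb throughout the list, peaks were also compared within classes of width. At the smallest width the median was 31.6 for CE and A genes together, 23.4 for class II, 22 for the other genes of the window and 22 for the whole list. Between 1 and 2 kb it was 58.4 (47.3 to 68.6, 21 peaks) for CE and A, 27.8 (23.6 to 32.8, 14 peaks) for class II, 26.6 for other genes and 26.8 for the list. Between 2 and 5 kb it was 86.9 (49.5 to 148, 16 peaks) for CE and A, against 32.9 for the other genes and 33.2 for the list. CE and A peaks were thus above the list in each of the 6 width classes, by a difference that was larger in wider classes, while class II medians lay close to it in the 4 classes up to 2 kb. Above 5 kb there were 3 CE peaks, with a median of 132, against 47.2 for the 1311 peaks of that class in the list.

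**Figure D3:**
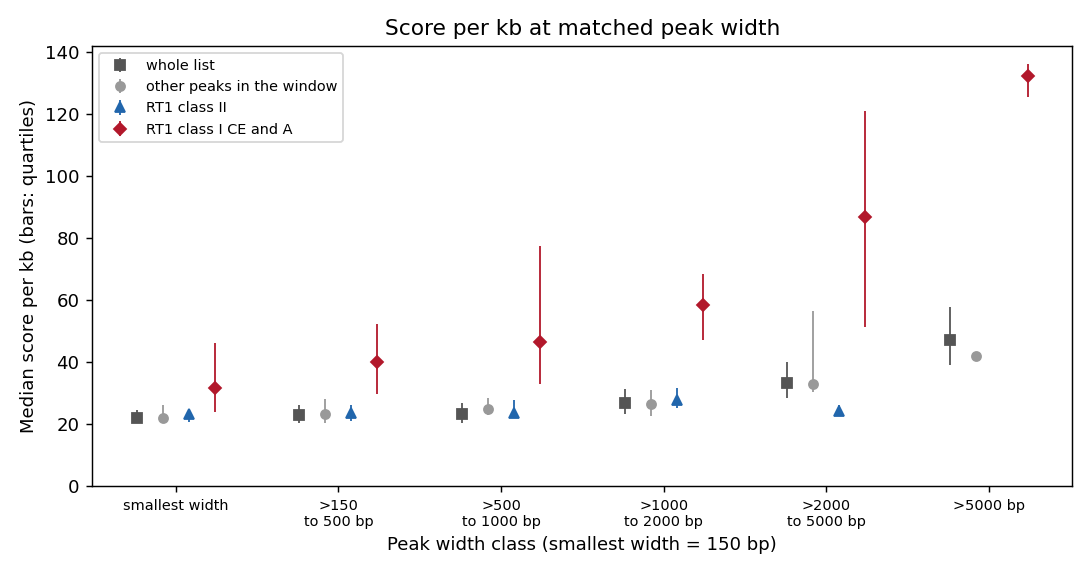
Median score per kb in 6 classes of peak width, with bars from the lower to the upper quartile, for the whole list, other genes of the window, RT1 class II and RT1-CE and RT1-A together. The CE and A medians rise from 31.6 at the smallest width to 132 above 5 kb, where they rest on 3 peaks, and the class II medians lie near those of the list up to 2 kb.

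The highest-scoring RT1 peaks were domains of several kb in 4 places. At RT1-T18, a class I gene of the T region, the peak at chr20:5186518-5205603 covered 19085 bp with a score of 1546 (95% counting interval 1511 to 1582) and 81.0 per kb, and ranked 45 in the list by score. Its centre lay 21509 bp from the TSS. The neighbouring peak at chr20:5176251-5185782 scored 1148 over 9531 bp. Counting intervals treat each step of the score grid as 1 read and cover counting error only. The centres of these RT1-T18 domains were annotated as intergenic.

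The CE genes gave 6 of the 10 highest. The RT1-CE12 peak at chr20:6869009-6879768 scored 1422 (1389 to 1456) over 10759 bp and reached the promoter. RT1-CE2 had a peak at chr20:6844446-6850632 with a score of 867 over 6186 bp and another at chr20:6855362-6858433 with 704 over 3071 bp. The latter had 229 per kb, the most of any RT1 peak and rank 16 in the whole list. RT1-CE6 had 3, at chr20:6760338-6767429 (score 841), chr20:6726736-6731201 (698) and chr20:6756430-6759881 (597), the last centred 321 bp from the TSS. The remaining 2 of the 10 were at RT1-M5 and RT1-A2. The RT1-M5 peak at chr20:4076793-4086306 scored 540.4 over 9513 bp, and at 56.8 per kb it was the densest of the M peaks. RT1-A2, a classical class I gene, had a peak at chr20:7397075-7401654 with a score of 461 and 101 per kb, whose centre was 34095 bp from the TSS.

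Class II peaks scored below most class I families and above the list as a whole. Their median score was 7.94, against 4.54 in the list, and 34 of 74 (45.9%, 35.1 to 57.2%) had a score of at least 9.9. Of the 74, 16 were wider than 1 kb (21.6%, 13.8 to 32.3%), against 10.9% of the list, so they stood above the list in width and score but not in score per kb. The highest score at RT1-DOb was 107.9 (3894 bp), at RT1-DOa 64.4 (1933 bp), at RT1-Db2 50.9 (1553 bp), at RT1-Ba 46.8 (1599 bp), at RT1-Ha 40.8 (1580 bp), at RT1-Db1 40.4 (1346 bp), at RT1-Da 27.4 (1595 bp), at RT1-Bb 12.4 (548 bp) and at RT1-DMb 9.9 (471 bp). The top value, at a gene whose product modulates peptide loading in B cells, was thus below those of RT1-M5 and of the highest CE, A and T/N/O/S peaks. No peak that names a class II RT1 gene was above 35.3 per kb. The peak at chr20:6123365-6124482, beside the RT1-Bb TSS, had 43.6 per kb and a score of 48.7 but names LOC688090. It is annotated to an intron and may be a class II peak, so this limit holds for peaks by the symbol they name. RT1-Hb and RT1-DMa were named by no peak.

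Dense peaks were also found among the CE genes where the nearest start site was that of another gene. In the block from 6.70 to 7.03 Mb, which holds most CE genes, the 71 RT1 peaks had a median of 49.5 per kb (43.7 to 66.7) and the 22 peaks that name other genes had 31.2 (21.97 to 67.2). Outside the block the 474 peaks of other genes had 23.5 (23.4 to 24.2). In the class II block from 5.94 to 6.22 Mb, the 7 peaks of other genes had 31.6 (18.7 to 43.6). Most of these 7 name LOC688090 and are annotated to introns of a transcript beside the RT1-Bb TSS. They may belong to RT1-Bb, so the value of this block is not one of genes clearly outside RT1. Both blocks were set after the values were seen. In the CE block the peaks of other genes name Neu1 (a lysosomal sialidase), Hspa1b and Hspa1l (heat shock proteins), the cytokine genes Tnf, Lta and Ltb, and an uncharacterised gene. The single peak of another gene above 100 per kb, at chr20:6718208-6718623 with 122, names Neu1 but lies 27433 bp from its TSS. It is annotated to a transcript end, and the gene of that transcript was not checked. In bins of 500 kb, the bin from 6.5 to 7 Mb held 106 peaks and a summed score of 10084, rank 5 of the 4361 bins of the genome with a peak, whose median was 218. The bin from 5 to 5.5 Mb, with the T region, had 5027 (rank 26) and that from 7 to 7.5 Mb, with RT1-A1 and RT1-A2, had 3090 (rank 79). The bin from 7.5 to 8 Mb, which has no RT1 peak, had 264 (rank 1982).

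At promoters RT1 peaks were about as frequent as the other peaks of the window. A peak counted as reaching a promoter where its edge came within 1000 bp of the TSS of the gene it names, as 4.81% of all peaks did. This held for 30 of the 272 RT1 peaks (11.03%, 7.84 to 15.3%), 54 of the 496 others (10.9%, 8.44 to 13.9%) and 5.47% of those on the rest of chromosome 20. Both kinds of peak also lay nearer to a TSS, with a median distance of 5979 bp at RT1 genes and 10763 bp at other genes, against 35622 bp in the list. The density of start sites in the window was not measured, and its part in these shares was not tested.

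The 30 RT1 peaks belonged to 22 of the 39 RT1 genes, 56.4% of them, where 38.4% of the 10647 genes named in the list had a promoter-reaching peak. They were 9 of 11 CE genes, 3 of 3 A genes, 6 of 9 class II genes, 3 of 8 T/N/O/S/Cl genes and 1 of 8 M genes. Each peak was credited only to the gene it names, so all these gene counts are minimums. The promoter peak of RT1-M5 also covers the RT1-M4 TSS, and that of RT1-CE7 lies within 1000 bp of the RT1-CE11 TSS. Scores ran from 3.51 at RT1-Ba (chr20:6150433-6150583) to 1422 at RT1-CE12. Next came RT1-CE2 (704), RT1-CE6 (597), RT1-M5 (540.4) and RT1-T18 (394), and then RT1-CE3 (130), RT1-CE5 (105), RT1-CE4 (88.3), RT1-O1 (79), RT1-A1 (68.5), RT1-CE14 (66.6) and RT1-A2 (66). Of the class I promoters printed above, the peak at RT1-CE3 had 83.3 per kb, that at RT1-A1 59.5, that at RT1-M5 56.8 and that at RT1-O1 45.0. Their CG counts do not give the order over all CE genes, since RT1-CE2, with 6 CG dinucleotides, had 229 per kb and RT1-CE5, with 19, had 49.5. In class II the promoter scores were 63.7 at RT1-DOa, 50.9 at RT1-Db2, 40 at RT1-DOb, 16.3 at RT1-Db1, 6.6 at RT1-Ba and 4.33 at RT1-Da. The RT1-Db2 peak at chr20:6185588-6187141 was centred 37 bp from the TSS. RT1-S2 (34.9), RT1-CE7 (29.3), RT1-CE16 (21.7) and RT1-A3 (3.92) completed the set of 22. The nearest peak that names RT1-Bb was centred 2507 bp from its TSS. Closer to that TSS was the peak at chr20:6123365-6124482 (score 48.7, 43.6 per kb), which names LOC688090.

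The other gene groups of the MHC are given by counts, beside the 38.4% of all named genes that had a promoter peak. The groups are small, and no difference between them is read from these counts. Of 19 complement and class III immune genes, 5 were named and 4 had a promoter peak, namely the complement factor Cfb (score 59.8) and the cytokine genes Tnf (34), Lta (4.13) and Ltb (2.89); Ly6g6d had a peak 2228 bp away. Of 23 developmental, matrix and signalling genes, 11 were named and 6 had one, led by the collagen receptor Ddr1 (15.9), the fibrillar collagen Col11a2 (13.4), the calcium channel Itpr3 (9.49) and Psors1c2 (8.46). Notch4, Pou5f1 and Gabbr1 were named only by peaks that did not reach the promoter. Of 7 Trim genes, which encode ubiquitin ligases, 5 were named and 4 had one, at Trim15 (184), Trim40 (22.9), Trim31 (7.84) and Trim10 (3.51), while Trim26 had 20 peaks and none at the promoter. Of 9 olfactory receptors 4 had one, at Olr1744 (397.5), Olr1742 (31.6), Olr1749 (5.36) and Olr1746 (4.13). The butyrophilin-like gene Btnl2, counted with the class II list, had one of 6.81. Of 43 housekeeping and nuclear genes 6 were named and 0 had a promoter peak, with Gnl1, Neu1 and Hspa1b among those named. Of the 5 antigen-processing genes, Tap2 (a peptide transporter subunit) and Psmb9 (an immunoproteasome subunit) were named and 0 had one. A gene that no peak names cannot be told from one that the authors' annotation does not hold. A promoter that lies under a peak named for a neighbouring gene is not counted here.

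The strongest peaks at other genes scored below the 10 highest RT1 peaks, all of class I genes, but not below the highest peak of every class I gene. Of the peaks at other genes, the highest was at Olr1744, chr20:3896076-3906210, with a score of 397.5 over 10134 bp and 39.2 per kb. The highest peak of RT1-A1 scored 351.7. Olr1744 was followed by Neu1 (388 and 192), Rnf39 (258 over 5755 bp), Btnl5 (250.2), Rpp21 (206.5), the motilin gene Mln (199), Trim15 (184), Hspa1b (152) and the ubiquitin-like gene Ubd (145). Dpcr1 (4037 bp, score 130.4) and further peaks of Olr1744 (4019 bp) and Ubd (3596 bp) were among the 10 widest. The Neu1 peaks, with 97.0 and 86.7 per kb, and the Hspa1b peak, with 75.5, lie in the CE block. Btnl5, with 74.0 per kb, and Rpp21, with 67.9, lie outside that block and were about as dense as Hspa1b. The highest peaks of Olr1744, Rnf39, Mln, Trim15 and Ubd had 38.1 to 44.9 per kb.

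By the authors' annotation of the peak centre, RT1 and other peaks of the window differed in the intergenic share by less than their intervals, and both lay below the genome. Intergenic peaks were 49.3% of RT1 peaks (43.4 to 55.2%) and 53.8% of the others (49.4 to 58.2%), against 74.0% on the rest of chromosome 20 and 74.7% in the list. Introns held 37.1% and 35.5%, against 21.8% in the list. The promoter-TSS class held 4.04% (11 peaks) and 4.03% (20 peaks), against 1.63%. The class at transcript ends held 6.25% of RT1 peaks (17 peaks, 3.94 to 9.78%) and 3.23% of the others (16 peaks, 1.995 to 5.18%), against 0.783% in the list.

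The pooled RT1 share hid opposite families. Intergenic peaks were 91.4% of M, 77.5% of T/N/O/S/Cl and 77.1% of A peaks, 48.6% of class II peaks and 9.09% of CE peaks. Of the 88 CE peaks, 66 (75%) were intronic. Without CE and A the intergenic share of RT1 peaks was 66.4%, above that of the other genes. The intron class depended on how transcripts were placed on rn5. Of the 101 intronic RT1 peaks, 44 lay in an intron of the gene they name, 45 in an intron of another RT1 gene and 12 in an intron of a gene outside RT1. The annotated introns of RT1-CE14 transcripts held 34 peaks named for 8 RT1 genes over a span of 256020 bp, and those of Hspa1a held 11 over 46614 bp. The peaks that name RT1-Ha lay in places 1380929 bp apart, with 9 peaks in one and 7 in the other. These spans were not compared with gene models of the same build, and the intronic share of CE peaks rests on them.

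**Figure D4:**
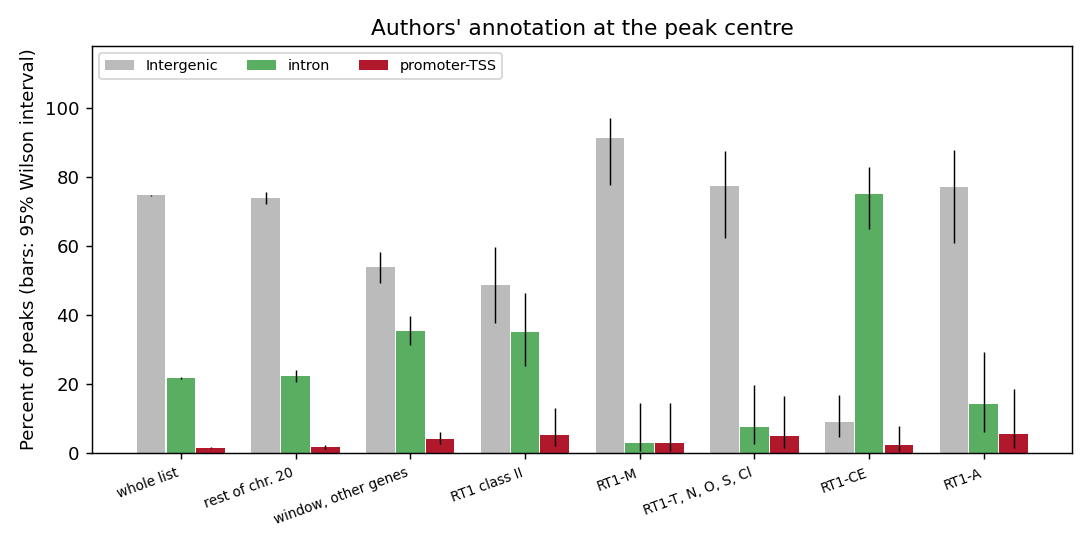
Percent of peaks whose centre the authors annotate as intergenic, intronic or promoter-TSS, with 95% Wilson intervals, for the whole list, the rest of chromosome 20, other genes of the window and the 5 RT1 families. RT1-CE peaks are 75% intronic, whereas RT1-M, RT1-T/N/O/S/Cl and RT1-A peaks are mostly intergenic.

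RT1 peaks were centred on endogenous retroviral sequence more often than the other peaks. The authors' annotation places 67 RT1 peaks (24.6%, 19.9 to 30.1%) on a long terminal repeat element, against 67 other peaks of the window (13.5%, 10.8 to 16.8%) and 9.06% of the list. For the ERVK class, a class of endogenous retroviruses, the counts were 39 (14.3%, 10.7 to 19.0%) and 39 (7.86%, 5.81 to 10.6%), against 5.42% on the rest of chromosome 20 and 3.20% of the list. Within RT1 these were 23 of 88 CE peaks (26.1%), 9 of 35 A peaks (25.7%), 7 of 74 class II peaks (9.46%), 0 of 35 M peaks and 0 of 40 T/N/O/S/Cl peaks, where the upper Wilson bounds are 9.89% and 8.76%. The element named most often was MurERV4-int, at 9 RT1 peaks with a median of 74.4 per kb, among them the RT1-CE6 peak of score 698 and the RT1-A2 peak of score 461.

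The higher score per kb of CE and A peaks was seen with and without such an element. CE peaks on ERVK had a median of 51.8 per kb and the 48 CE peaks on no repeat or CpG island had 46.3. The A peaks had 54.7 on ERVK and 49.5 on neither. Peaks on ERVK in the whole list had 22.9, and those on no repeat or island had 23.0. CpG islands held the centre of 2 of the 272 RT1 peaks (0.735%), against 0.379% of the list. The number of copies of these regions in the animals, the placement of reads that fit several copies and the level of the input there were not tested.

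The edges of the window differed. The last peak before it was at the olfactory receptor Olr1671 (score 3.51), more than 3 Mb from the first inside. The last inside, at the glutamate receptor gene Grm4, chr20:8996891-8998412, had a score of 60 and 39.5 per kb, and the first after it, at the same gene, started at 9001368 and had 11.8 and 26.1 per kb. The bin from 8.5 to 9 Mb held 79 peaks, against a median of 21 per bin with a peak, so peaks continue across the upper edge. A further 30 peaks that name RT1-CE10 lie outside the window, near the start of chromosome 20. They had a median of 35.3 per kb (26.8 to 49.5), and the highest, at chr20:137228-142843, scored 726 over 5615 bp with 129 per kb. With these peaks added the RT1 median was 29.9.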

How the data were processed

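The members and gene lists were chosen with earlier results of these data known. Per the submitters' processing notes, CASAVA 1.8.2, Bowtie and HOMER were used. Per the file headers, the combined H3K27me3 sham list was annotated with HOMER on rn5. Not given in the sources used here are how peaks were called, whether input was subtracted, how replicates were joined and which Bowtie version ran. The authors deposited a peak score with no stated scale, beside each peak's position, distance to the nearest TSS and annotation. It served to rank, filter and describe peaks of this list alone. The depth per library is unknown.

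Score per kb is the score divided by width (end minus start). Medians have order-statistic 95% intervals and shares have 95% Wilson intervals. All 97601 scores under 10 (100%) lie on multiples of 0.2062 within 0.0055, and the Poisson counting intervals treat a multiple as 1 read, an assumption. The median interval, the merging of peaks and the search for the score step were tested on simulated or constructed data. The other steps were not. Python 3.11.15, pandas 2.3.3, numpy 2.4.6 and scipy 1.17.1 were used. Genes named are the 10 highest RT1 peaks, the RT1 promoter peaks, the class II genes, the 10 highest and 10 widest other peaks and up to 7 members of each fixed group (4 with and 3 without a promoter peak); other genes were named after their values were seen. Alternatives changed the width, score, distance to the TSS, window, RT1 definition, merging and number of peaks per gene.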

Additional observations from a re-analysis of the deposited data

How the results depend on the processing

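RT1 peaks stayed above the other peaks of the window in median score per kb and width in 10 of 10 alternative settings, and 26 of 51 values moved by less than their interval. This is the order of the medians alone. For both measures the intervals of RT1 and other peaks overlapped with merged peaks, with 1 peak per gene and without CE and A genes. With peaks wider than 150 bp, score per kb was 33.9 at RT1 genes and 24.4 at others, width 683.5 and 379 bp, and the RT1 intergenic share 42.3%. With scores at or above the list's median, they were 36.4 and 26.8, 665 and 401 bp, and 42% and 58.5%. With peaks within 1 kb merged, they were 24.9 (22 to 28.4) and 21.3 (20.6 to 22.5), and 1175 and 520 bp. With 1 peak per gene, the highest, they were 36.5 and 27.6, 1580 and 746 bp, and the share at other genes was 45.9% against 53.8% at RT1 genes, which turns the order of the intergenic shares. Within 20 kb of the TSS the RT1 share was 41.2%, and from 2 to 7 Mb that of other genes was 59.9%. Settings added after seeing the data gave an RT1 score per kb of 25.5 without CE and A genes, where the intergenic share of 66.4% again turned the order, and of 36.6 without class II. The cause of these shifts was not tested. No paired analysis was possible because the list holds no value per library. The depth of the libraries, which limits the weakest peaks, is unknown.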

Other observations

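The order of the RT1 genes along chromosome 20 in the peak list was compared with their order in the newer assembly GRCr8, for the 37 of 39 genes found in both. A gene was placed by its first peak. Spearman's rho over genes, given as a description, was 0.736 for all RT1 genes, 1 for the 8 RT1-M genes, 0.40 for the 11 RT1-CE genes and -1 for the 9 class II genes. RT1-Ha and RT1-CE14 have peaks in 2 separate places. With both placed by their last peak, rho was 0.770 for all RT1 genes, 0.309 for CE and -0.40 for class II. Without both genes it was 0.775, 0.467 (10 genes) and -1 (8 genes).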
